A study of Mus musculus with 35 samples.

Results

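Livers of 6 mice given an antisense oligonucleotide against Smyd3 were compared, over the whole transcriptome, with livers of 6 mice given a control oligonucleotide. The members were chosen by their labels alone, as every column of the raw count table that the labels give to these groups, which are 12 of the 21 mice of the series. All 12 mice, labelled C57Bl6, had received diethylnitrosamine (DEN, a carcinogen that liver cells activate) once at 25 mg/kg on day 14 after birth. From day 133 they were injected intraperitoneally with an ASO, as antisense oligonucleotides are called, which binds an RNA of matching sequence and lowers it, at 50 mg/kg, 2 times a week, until harvest at day 260. The Smyd3-ASO and control-ASO groups thus share the carcinogen, the age and the injections, and differ by the target of the ASO. The remaining 9 mice are given as levels only: 5 untreated mice harvested at day 260, and 4 DEN mice harvested at day 133 (P133), before any ASO. The labels call every DEN sample a DEN-induced tumour and hepatocellular carcinoma, and the RNA was made from liver pieces. They give no sex, litter, cohort or sequencing run, and do not say how much tumour each piece held.

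Smyd3 is a lysine methyltransferase of the SET and MYND domain family, known to add methyl groups to histones and to signalling proteins, and it is often high in liver cancer. DEN given to young mice leads to liver tumours that carry activated Ras or Raf signalling, and such tumours commonly make fetal liver products that adult hepatocytes have silenced. Adult hepatocytes for their part make most plasma proteins, break down drugs and hormones with cytochromes P450, burn fatty acids, and differ between the sexes under the pattern of growth hormone release.

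Each read marks the 3' end of a polyadenylated transcript, so counts are not divided by transcript length and levels are compared between mice, not between genes. Control-ASO mice had 6789715 to 13805881 counts each, and Smyd3-ASO mice 6358080 to 20258619. The 10 most abundant genes took 17.3 to 22.9% of counts under control ASO, against 9.46 to 15.7% under Smyd3-ASO. Levels are CPM, counts scaled to a common library size, and the values of a group are given as its lowest, median and highest mouse. Changes are log2 fold changes of Smyd3-ASO over control ASO from edgeR, with their standard error (SE) and a Benjamini-Hochberg adjusted p over all genes tested. A gene is said to have risen or fallen where that p is under 0.05. Of 15297 genes tested 4000 passed, or 26.1%, with 2028 risen (13.3%) and 1972 fallen (12.9%), and the median log2 change of all genes was 0.01. Changes were often large: 773 genes rose (5.05% of those tested) and 934 fell (6.11%) at least 2-fold, and 50 rose and 131 fell at least 8-fold. In 806 genes every Smyd3-ASO mouse lay above every control-ASO mouse (5.27% of those tested), and in 892 every one lay below (5.83%).

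**Figure D1:**
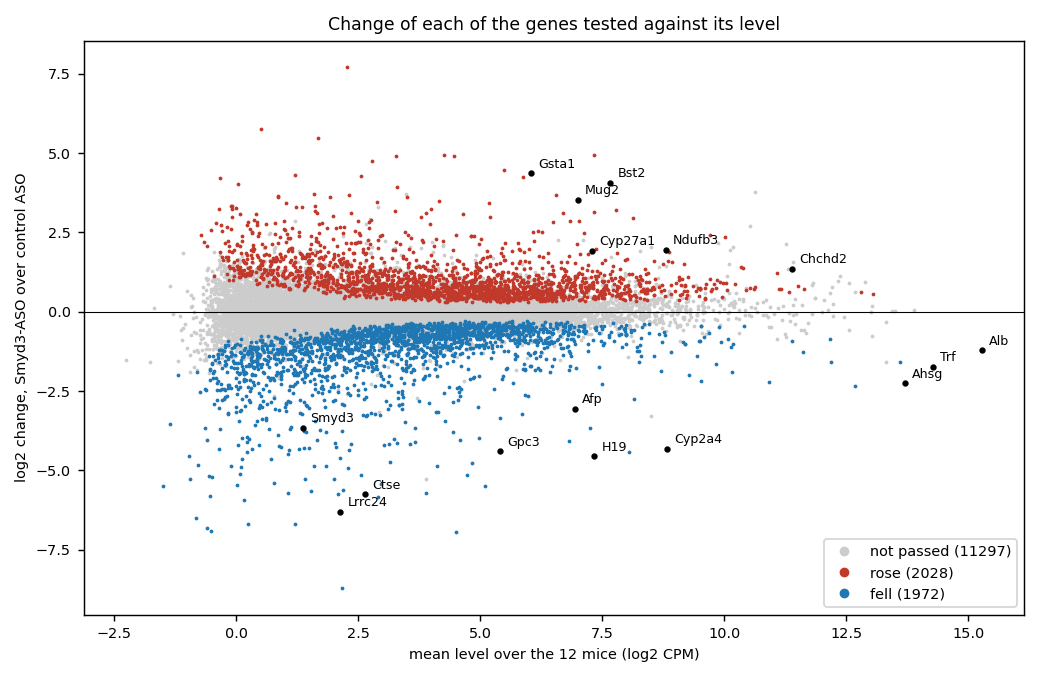
Each point is 1 of 15297 genes, with its mean level over the 12 mice (log2 CPM) on the horizontal axis and its log2 change, Smyd3-ASO over control ASO, on the vertical axis. Red points rose (2028), blue points fell (1972) and grey points did not pass; Alb, Trf and Ahsg lie at the far right, below 0, and Lrrc24 is the lowest of the genes named.

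Smyd3 itself was read first (ENSMUSG00000055067; mm10 chromosome 1, minus strand, 178951960 to 179518041). It stood at 3.11, 3.95 and 4.64 CPM in control-ASO livers and at 0, 0.246 and 0.758 CPM in Smyd3-ASO livers (log2 -3.65, SE 0.47, adjusted p = 1.48e-04). The groups did not overlap. Over all 924 splits of the 12 mice, the exact permutation test (two-sided) returned its smallest possible value, p = 0.00216. No other Smyd gene tested passed, with Smyd1, Smyd2, Smyd4 and Smyd5 at log2 -0.17, -0.30, -0.11 and 0.15 (adjusted p = 0.776, 0.306, 0.816 and 0.639). Among histone lysine methyltransferases and demethylases, the wider family of enzymes that write and erase these marks, 0 of 49 rose, 8 fell and 41 did not pass, with a median log2 change of -0.08. This family had 16.3% called, against 26.1% of all genes. The demethylase gene Kdm4b went from 3.00, 4.06 and 5.69 CPM to 1.08, 2.04 and 2.39 CPM (log2 -1.11, adjusted p = 0.00349). The demethylase gene Kdm5b went from 10.8, 12.1 and 14.6 CPM to 7.33, 8.83 and 10.2 CPM (log2 -0.54, adjusted p = 0.00748). Setd2, which writes methylation of lysine 36 of histone H3, went from 18.5, 22.9 and 27.8 CPM to 10.2, 15.9 and 18.3 CPM (log2 -0.59, adjusted p = 0.0131). For these 3 genes no mouse of one group reached the other. The count of 8 was 4 to 7 when 1 mouse was left out, with 4 without control-ASO mouse 4 or Smyd3-ASO mouse 2 and 5 without control-ASO mouse 2, 3, 5 or 6 or Smyd3-ASO mouse 3 or 5. Phf2 passed with log2 -0.35 but not without control-ASO mouse 4 (adjusted p = 0.0502).

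The labelled tissue was checked against hepatocyte genes, and Alb, Apoa1, Cps1, Ttr and Serpina1c were all abundant in both groups, the lowest being Cps1 at 447 CPM or more in every mouse. Correlations between mice over 7951 genes (log2 CPM) were 0.931 to 0.965 within control ASO, 0.878 to 0.970 within Smyd3-ASO and 0.841 to 0.943 between the groups. In a principal component analysis of the 12 mice the first component held 41.0% of the variance and put all control-ASO mice at -34.2 to -15.9 and all Smyd3-ASO mice at 16.5 to 40.2. The next component held 17.8% and split the Smyd3-ASO mice, with mice 1, 2 and 6 at 20.8 to 32.0 and mice 3, 4 and 5 at -35.6 to -1.59. Gene groups in which these mice differ are given mouse by mouse below. In a chi-square test of counts, each of the 15 pairs of control-ASO mice and each of the 15 pairs of Smyd3-ASO mice differed beyond sampling noise; other pairs were not compared.

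**Figure D2:**
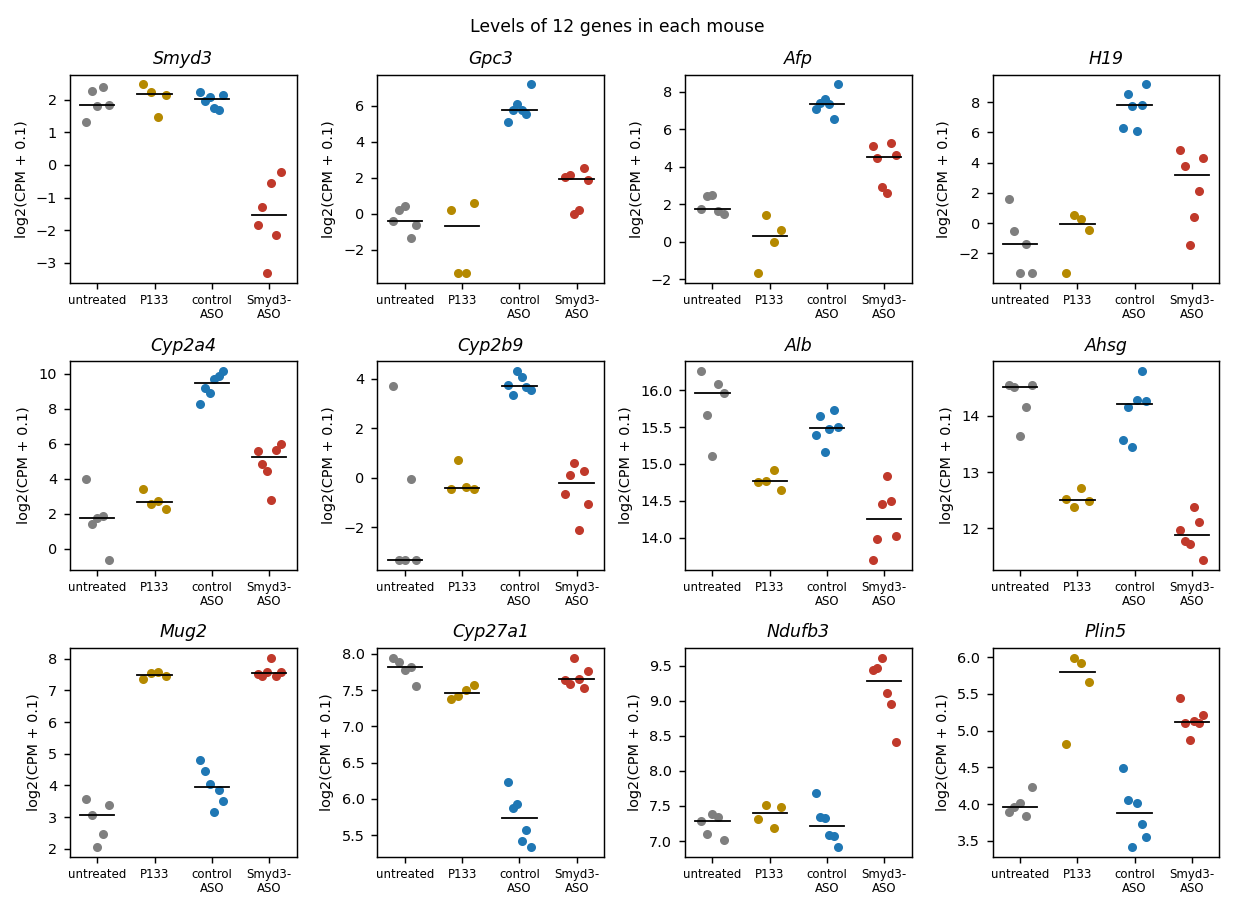
Levels of 12 genes as log2(CPM + 0.1) in each of 21 mice, with a line at the median of each group (5 untreated, 4 P133, 6 control-ASO and 6 Smyd3-ASO mice). Smyd3 is low in Smyd3-ASO mice only; Gpc3, Afp, H19 and Cyp2a4 are highest in control-ASO mice; Mug2 and Plin5 are high and Alb and Ahsg low in both P133 and Smyd3-ASO mice; Ndufb3 is highest in Smyd3-ASO mice.

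The genes with the smallest adjusted p among the rises were led by Mug2, which encodes a murinoglobulin, a protease-trapping plasma protein (ENSMUSG00000030131; mm10 chromosome 6, plus strand, 122006761 to 122085965). Mug2 stood at 8.92, 15.4 and 28.0 CPM in control-ASO and at 175, 186 and 262 CPM in Smyd3-ASO livers (log2 3.53, SE 0.26, adjusted p = 4.71e-06). Its close copy Mug1 did not pass and lay the other way, at 1097, 1322 and 1444 CPM and 336, 694 and 1309.8 CPM (log2 -0.68, adjusted p = 0.0712); without Smyd3-ASO mouse 5 or 3 Mug1 did pass (adjusted p = 0.0235 and 0.0395). The next rises were Cyp27a1, which opens the side chain of sterols in bile acid synthesis (ENSMUSG00000026170; mm10 chromosome 1, plus strand, 74713574 to 74737892), from 40.3, 53.2 and 75.0 CPM to 185, 201 and 247 CPM (log2 1.92, SE 0.16, adjusted p = 7.99e-06), and then Paox, a polyamine oxidase, from 1.63, 2.23 and 5.29 CPM to 16.2, 19.8 and 25.2 CPM (log2 2.99, adjusted p = 8.73e-06). No mouse of one group reached the other in Mug2, Cyp27a1 or Paox. Klra2, a receptor of the lectin-like family found on blood cells, rose from 0.424, 0.711 and 1.51 CPM to 5.50, 7.18 and 10.6 CPM (log2 3.11, adjusted p = 1.75e-05). Tmem254a, Tmem254b and Tmem254c, neighbouring copies between which reads may have been split, rose by log2 1.95, 1.98 and 1.97. The list ended with Cntrl, a centriole protein (log2 1.30), and with Ssbp1, Pdf and Ndufb3, which serve mitochondrial DNA, mitochondrial translation and respiratory complex I (log2 1.56, 1.21 and 1.95). In each of these genes every Smyd3-ASO mouse lay above every control-ASO mouse.

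Among the falls with the smallest adjusted p was Tnfsf10, which encodes the death ligand TRAIL (ENSMUSG00000039304; mm10 chromosome 3, plus strand, 27317028 to 27342427), from 8.39, 12.4 and 19.5 CPM to 1.20, 1.40 and 2.19 CPM (log2 -3.05, SE 0.23, adjusted p = 5.27e-06). Mllt3, a reader of acetylated histones in elongation complexes, fell from 6.54, 7.60 and 9.99 CPM to 1.01, 1.28 and 1.75 CPM (log2 -2.62, adjusted p = 5.58e-06), and Nxn, a thioredoxin relative that binds Dishevelled, from 10.0, 14.7 and 20.04 CPM to 2.098, 2.22 and 3.37 CPM (log2 -2.58, adjusted p = 7.45e-06). These 3 genes did not overlap between the groups. Neurl1a, a ubiquitin ligase, fell from 4.98, 12.6 and 20.1 CPM to 0.487, 0.640 and 1.01 CPM (log2 -4.21, adjusted p = 7.75e-06). Lrrc24, a leucine-rich repeat gene, fell from 3.20, 7.14 and 10.7 CPM to 0, 0.0583 and 0.217 CPM (log2 -6.30, adjusted p = 7.99e-06); its level under Smyd3-ASO rests on few reads. Hgfac, the plasma protease that activates hepatocyte growth factor, fell from 181, 214 and 293 CPM to 57.4, 63.2 and 80.5 CPM (log2 -1.75, adjusted p = 7.99e-06). The others were Tnfsf13 (log2 -2.11) with the fusion gene Tnfsfm13 that shares its exons, Snrpert (log2 -1.27), Cables1 (-3.26), the small nucleolar RNA Snord7 (-2.49) and Cyp2b9 (-4.15). In all 12 every Smyd3-ASO mouse lay below every control-ASO mouse. These falls too were picked by adjusted p on the same mice, so the separation is not separate evidence. Ube2ql1, a ubiquitin-conjugating enzyme relative, had no read in any Smyd3-ASO mouse and stood at 0.495, 1.04 and 1.43 CPM in control-ASO mice.

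The 21 mice of the 4 groups were laid side by side for genes in which the groups did not overlap. P133 and Smyd3-ASO mice (10 mice) all lay above untreated and control-ASO mice (11 mice) in 74 genes, of which 73 had risen, and all lay below in 103 genes, each of which had fallen. The genes above included Mug2, Paox, Klra2, the Tmem254 copies, Plin5 and Gsta1. Mug2 stood at 179.5 ± 13.1 CPM (SD, n = 4) in P133 and 7.97 ± 3.25 CPM (n = 5) in untreated livers. The genes below included Tnfsf10, Hgfac, Ctse, Ahsg, Alb, Serpina1a, Serpina1b, Apom, Hbb-bs and Hba-a1. Ahsg stood at 5924 ± 599 CPM (n = 4) in P133 and 20527 ± 4977 CPM (n = 5) in untreated livers. Control-ASO mice alone lay above all 15 others in 206 genes, all of them fallen, including Gpc3, Cyp2a4, Mllt3, Nxn, Neurl1a, Cd63, Nid1, Pygb and Phgdh. They alone lay below all others in 65 genes, of which 63 had risen, including Cyp27a1, Chchd2, Cs, Pdf and Sod1. Smyd3-ASO mice alone lay above all others in 237 genes, 235 of them risen, including Ssbp1, Ndufb3, Txn1, Psme2 and Hspe1, and below all others in 165, 163 of them fallen, including Smyd3, Serpina6, Apoa1, Serpind1, Dgat2 and Clu. Genes thus differed in which of the ASO groups stood apart from the other mice. Since the labels give no cohort, litter or run, a shared origin of mice and the effect of an ASO cannot be told apart here.

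**Figure D3:**
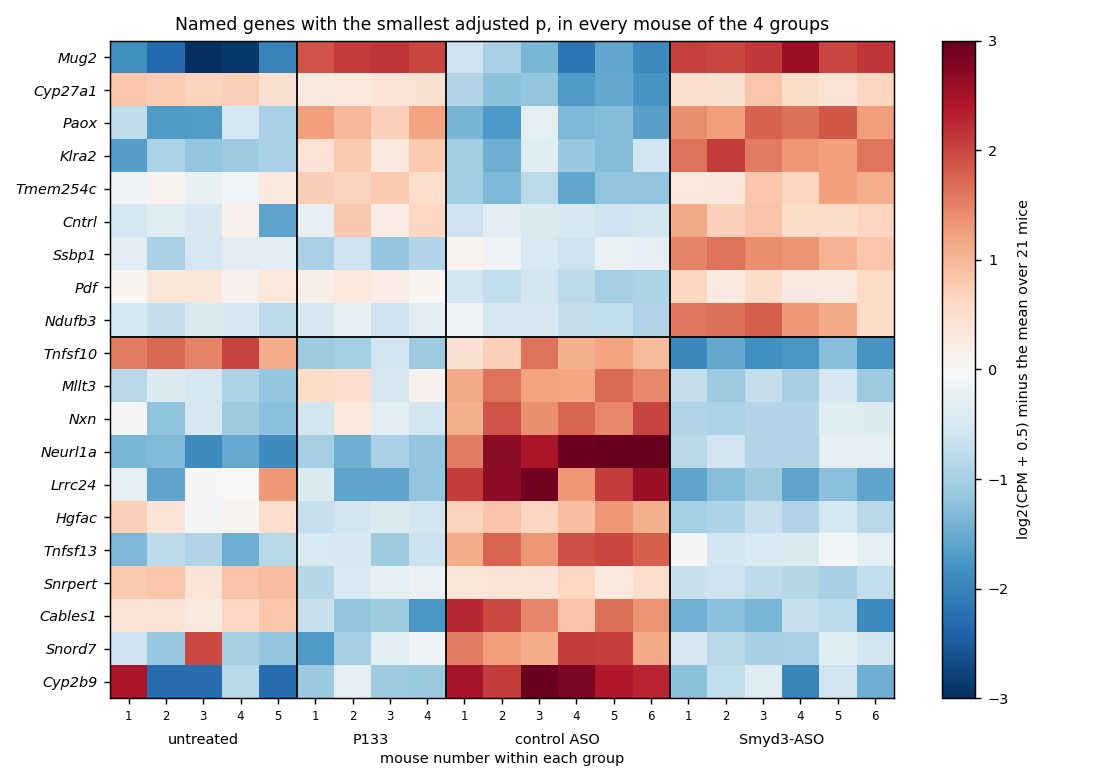
Each row is 1 of the genes with the smallest adjusted p (rises above the line, falls below it) and each column 1 of 21 mice. The colour is log2(CPM + 0.5) minus the gene's mean over the 21 mice, from -3 (blue) to 3 (red). Mug2, Paox and Klra2 are red in both P133 and Smyd3-ASO mice, Mllt3, Nxn, Neurl1a and Tnfsf13 are reddest in control-ASO mice, and Ssbp1 and Ndufb3 are red in Smyd3-ASO mice.

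Close copies whose log2 changes had opposite signs are shown by their promoters, 250 bases before to 50 bases after the RefSeq start (GRCm38.p6). Mug1 did not pass, and coding sequences were not compared. The Mug2 promoter lies at chr6:122006548-122006847 and the Mug1 promoter at chr6:121838291-121838590, both on the plus strand. Capitals mark the motif CCAAT on either strand.
Mug2: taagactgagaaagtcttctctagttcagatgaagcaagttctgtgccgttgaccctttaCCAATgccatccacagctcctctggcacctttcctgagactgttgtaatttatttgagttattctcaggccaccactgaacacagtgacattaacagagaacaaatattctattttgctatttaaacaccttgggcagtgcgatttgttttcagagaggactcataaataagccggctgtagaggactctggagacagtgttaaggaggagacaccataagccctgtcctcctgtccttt
Mug1: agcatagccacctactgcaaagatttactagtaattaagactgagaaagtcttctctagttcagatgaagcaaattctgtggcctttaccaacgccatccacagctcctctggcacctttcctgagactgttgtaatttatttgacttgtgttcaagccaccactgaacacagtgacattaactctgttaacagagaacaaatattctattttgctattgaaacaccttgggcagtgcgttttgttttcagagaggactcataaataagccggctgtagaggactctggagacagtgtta
In the best global alignment, with gaps at the ends not penalised, 246 of 256 aligned bases (96.1%) were identical. The Mug2 promoter holds 1 CCAAT and the Mug1 promoter holds none, and 37.4% of 32851 mouse promoters of that length hold at least 1. Because the copies are so alike, reads of one may have been assigned to the other. The cytochromes Cyp2b9 and Cyp2b10 are the other pair, at chr7:26173159-26173458 and chr7:25897408-25897707, both on the plus strand.
Cyp2b9: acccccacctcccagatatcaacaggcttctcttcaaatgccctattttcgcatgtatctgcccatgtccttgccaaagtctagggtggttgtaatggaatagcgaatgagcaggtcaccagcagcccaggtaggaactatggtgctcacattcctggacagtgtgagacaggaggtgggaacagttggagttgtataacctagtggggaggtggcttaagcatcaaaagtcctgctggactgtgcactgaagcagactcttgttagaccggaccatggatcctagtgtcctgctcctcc
Cyp2b10: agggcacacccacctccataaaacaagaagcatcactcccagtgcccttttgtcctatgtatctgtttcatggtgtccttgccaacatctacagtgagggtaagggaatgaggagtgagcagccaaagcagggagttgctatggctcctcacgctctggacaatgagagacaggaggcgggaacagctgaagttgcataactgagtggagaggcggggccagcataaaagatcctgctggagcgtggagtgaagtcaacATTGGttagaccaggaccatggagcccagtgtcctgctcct
Here 223 of 289 aligned bases (77.2%) were identical, and Cyp2b10 holds 1 CCAAT, on the other strand, while Cyp2b9 holds none. A match to these letters is a description of the window and was not tested against the change in RNA.

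Fetal and tumour products fell more often than they rose. Of the oncofetal and liver tumour markers 5 of 25 rose, 12 fell and 8 did not pass, with a median log2 change of -1.30. Gpc3, a cell-surface proteoglycan of fetal liver (ENSMUSG00000055653; mm10 chromosome X, minus strand, 52272426 to 52613950), went from 34.2, 53.5 and 148 CPM to 0.866, 3.76 and 5.74 CPM (log2 -4.39, SE 0.52, adjusted p = 1.60e-04). Afp, the fetal plasma carrier alpha-fetoprotein (ENSMUSG00000054932; mm10 chromosome 5, plus strand, 90490737 to 90508907), went from 94.3, 166 and 342 CPM to 5.93, 23.2 and 39.03 CPM (log2 -3.05, SE 0.49, adjusted p = 9.77e-04). Golm1, a Golgi membrane protein, went from 6.61, 11.1 and 16.4 CPM to 0.974, 2.26 and 3.65 CPM (log2 -2.33, adjusted p = 4.34e-04). In these 3 genes the lowest control-ASO mouse lay above the highest Smyd3-ASO mouse. Tff3, a mucosal repair peptide, went from 157, 196 and 348 CPM to 3.69, 14.8 and 50.1 CPM (log2 -3.66, adjusted p = 9.83e-04), and from log2 -3.66 to -4.27 without Smyd3-ASO mouse 4. The count of 12 falls was 11 to 12 with 1 mouse left out, while the 5 rises (Epcam, Cd44, Cbr3, Abcc4 and Rgs5) were 1 without control-ASO mouse 1 or 3 or Smyd3-ASO mouse 1 or 2. In bulk tissue fewer cells that make a product and less RNA per cell cannot be told apart, and the labels do not give the tumour content of each piece. Untreated and P133 livers had lower levels still: Gpc3 stood at 0.757 ± 0.392 CPM (SD, n = 5) in untreated and 0.619 ± 0.730 CPM (n = 4) in P133 livers, and Afp at 3.95 ± 1.34 CPM and 1.27 ± 0.986 CPM. Over the list the median member, against the control-ASO mean, stood at -2.65 to -1.43 (log2) in untreated, -2.65 to -1.81 in P133 and -1.42 to -0.65 in Smyd3-ASO mice, so that the last were lower than control ASO and higher than most of the others. Igdcc4 and Prom2, 2 membrane proteins outside the list that were picked out after their values were seen, also fell (log2 -4.10 and -4.72).

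Imprinted growth genes, which are expressed from 1 parental copy and run growth before birth, also fell more often than they rose, and Igf2, H19 and Peg3 stand in both lists. Of these, 1 of 17 rose, 6 fell and 10 did not pass, with a median log2 change of -0.94. The shares called were 68.0% of oncofetal and 41.2% of imprinted genes, against 26.1% of all genes. Cdkn1c, a cyclin-dependent kinase inhibitor, went from 1.77, 1.93 and 3.65 CPM to 0.375, 0.523 and 0.903 CPM (log2 -1.94, adjusted p = 5.15e-04), with no overlap. Igf2, the fetal insulin-like growth factor, went from 1.01, 2.89 and 8.20 CPM to 0.177, 0.235 and 1.55 CPM (log2 -3.02, adjusted p = 0.00406), and was at log2 -4.07 without Smyd3-ASO mouse 2. The noncoding H19 (ENSMUSG00000000031; mm10 chromosome 7, minus strand, 142575529 to 142578143), a neighbour of Igf2, went from 67.5, 221 and 590.4 CPM to 0.271, 8.90 and 28.0 CPM (log2 -4.55, SE 0.99, adjusted p = 0.00651), with no overlap. Sgce, a sarcoglycan, fell (log2 -1.39), and Gnas, a signalling G protein, was the member that rose (log2 0.53). An exon of H19 holds the precursor of miR-675, and its mature products are given because counts at both the host and the microRNA gene were lower; Mir675 was picked out after its values were seen. Capitals mark the seed, bases 2 to 8, and positions are on the minus strand of GRCm38.p6.
mmu-miR-675-5p at chr7:142577112-142577133: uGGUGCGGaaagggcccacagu
mmu-miR-675-3p at chr7:142577078-142577099: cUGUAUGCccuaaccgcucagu
The Mir675 gene had 0.545, 1.68 and 32.8 CPM in control-ASO and 0, 0 and 0.722 CPM in Smyd3-ASO mice (log2 -5.62, adjusted p = 0.0103). Its change was log2 -3.85 without control-ASO mouse 6 and -7.49 without Smyd3-ASO mouse 1. Reads of polyadenylated H19 and of Mir675 cannot be told apart in these counts, and mature microRNAs are not captured by this kind of library.

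Female-biased liver genes fell in larger part than any list above. These genes are low in males and rise when growth hormone loses its pulses, and of them 4 of 23 rose, 15 fell and 4 did not pass, with a median log2 change of -2.35. Cyp2b9 went from 10.0, 12.8 and 19.8 CPM to 0.133, 0.756 and 1.41 CPM (log2 -4.15, adjusted p = 1.84e-05). Abcd2, a peroxisomal fatty acid transporter, went from 16.2, 24.9 and 35.3 CPM to 1.03, 2.48 and 5.45 CPM (log2 -3.17, adjusted p = 3.67e-05). Cyp3a41b, which may share reads with its copy Cyp3a41a, went from 12.5, 46.7 and 75.5 CPM to 0.379, 1.51 and 4.06 CPM (log2 -4.76, adjusted p = 1.41e-04). Cyp2a4, a steroid 15-alpha hydroxylase, went from 316, 716 and 1157 CPM to 6.73, 38.6 and 64.8 CPM (log2 -4.31, SE 0.52, adjusted p = 1.55e-04). None of the 4 overlapped between the groups. The 4 members that rose were Cyp2b10, Cyp4a10, Sult1e1 and Cyp4a14. Over the list the median member stood at -1.77 to -1.25 (log2, against the control-ASO mean) in Smyd3-ASO mice, at -2.05 to -0.27 in untreated and at -2.52 to -1.79 in P133 mice. Of male-biased genes 5 of 28 rose, 0 fell and 23 did not pass, with a median log2 change of 0.56, and their 5 rises were 3 without control-ASO mouse 4 or 5 or Smyd3-ASO mouse 1, 4 or 5. The shares called were 82.6% of female-biased and 17.9% of male-biased genes, against 26.1% of all genes. Ugt2b38, a glucuronosyltransferase, rose from 0.322, 0.457 and 0.707 CPM to 0.816, 4.54 and 7.12 CPM (log2 3.11, adjusted p = 5.15e-04), with no overlap. Cyp4a12b, a fatty acid hydroxylase, rose from 6.09, 12.7 and 50.99 CPM to 82.7, 96.7 and 135 CPM (log2 2.54, adjusted p = 0.00142), and by 3.19 without control-ASO mouse 3.

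The major urinary proteins, a family under pulsatile growth hormone, had a median log2 change of 0.77, and 0 of 22 passed in edgeR, with 2 at an unadjusted p under 0.05. DESeq2 called 2 of them and limma voom 0, and without control-ASO mouse 1 edgeR called 4 higher. Mup20 stood at 941, 2675 and 4646 CPM and 3007, 4886 and 13637 CPM (log2 1.14, adjusted p = 0.0715), and passed without control-ASO mouse 1 (adjusted p = 0.0477). In the growth hormone and insulin-like growth factor axis 1 of 19 genes rose and 4 fell (26.3% called, against 26.1% of all genes). The prolactin receptor Prlr, a female-biased receptor of the same axis, fell from 37.6, 59.4 and 97.1 CPM to 8.88, 23.6 and 32.5 CPM (log2 -1.48, adjusted p = 0.00394), with no overlap. Of genes on the sex chromosomes, the Y-linked Eif2s3y, Ddx3y and Kdm5d had reads in all 12 mice and did not pass (log2 0.25, -0.06 and -0.03), while Uty fell from 15.4, 18.5 and 21.9 CPM to 9.51, 13.04 and 16.4 CPM (log2 -0.54, adjusted p = 0.0242), with overlap; that call ended without control-ASO mouse 6 or Smyd3-ASO mouse 2 (adjusted p = 0.0572 and 0.0526).

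Among plasma protein genes, the main output of hepatocytes, falls outnumbered rises. Of the plasma carriers 2 of 27 rose, 11 fell and 14 did not pass, with a median log2 change of -0.48. That is 48.1% called, against 26.1% of all genes. Alb, serum albumin, stood at 36512, 45833 and 54722 CPM in control-ASO and 13227, 19495 and 29299 CPM in Smyd3-ASO mice (log2 -1.21, adjusted p = 0.00139). Ahsg, the mineral-binding fetuin-A, went from 11125, 19029 and 28607 CPM to 2753, 3739.9 and 5311 CPM (log2 -2.25, adjusted p = 6.09e-05). Cp, the copper carrier ceruloplasmin, went from 890.0, 1294 and 1650.0 CPM to 449, 565 and 809 CPM (log2 -1.10, adjusted p = 0.00111). Serpina6, the glucocorticoid carrier, went from 90.1, 404 and 827 CPM to 10.4, 18.4 and 32.2 CPM (log2 -4.42, SE 0.50, adjusted p = 1.09e-04). None of these overlapped between the groups. Trf, the iron carrier transferrin, lost the most CPM after Alb and did overlap, with 13749, 25016 and 37364 CPM against 4511, 5973 and 15587 CPM (log2 -1.73, adjusted p = 0.00229). The carriers Orm1 and Orm2, which rise in inflammation, went the other way and rose (log2 2.36 and 3.16), with Orm2 at 4.01 without control-ASO mouse 1. Over the list the median member lay at -0.89, -1.32 and -0.94 (log2, against the control-ASO mean) in Smyd3-ASO mice 1, 2 and 6 and at -0.01, 0.03 and -0.13 in mice 3, 4 and 5, so the falls were not alike in all mice.

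Inhibitors and lipid carriers were mixed. Beside 26.1% of all genes, 33.3% of Serpina inhibitors, 29.6% of coagulation genes, 36.4% of apolipoproteins and 36.4% of complement genes were called. Of Serpina inhibitors 1 of 18 rose, 5 fell and 12 did not pass, with a median log2 change of 0.06. Serpina3c went from 45.9, 85.9 and 117 CPM to 3.89, 8.29 and 18.3 CPM (log2 -3.21, adjusted p = 9.67e-05). Serpina1b, one of several near-identical antitrypsin copies whose reads may be split, went from 5389, 9133 and 12056 CPM to 873, 1920.4 and 2835 CPM (log2 -2.33, adjusted p = 1.12e-04). Serpina3g was the member that rose (log2 1.41). Coagulation genes had 7 falls and 1 rise (Thbd) among 27, with 3 falls without control-ASO mouse 5 or Smyd3-ASO mouse 2 and 4 without control-ASO mouse 4 or 6. Serpind1, which blocks thrombin, went from 294, 332 and 425 CPM to 99.2, 147 and 223 CPM (log2 -1.23, adjusted p = 4.52e-04), and Serpinf2, which blocks plasmin, from 434, 509 and 845 CPM to 133, 249 and 346 CPM (log2 -1.26, adjusted p = 0.00181). The inhibitors Serpina3c, Serpina1b, Serpind1 and Serpinf2 did not overlap between the groups. Of apolipoproteins 3 of 22 rose, 5 fell and 14 did not pass, with a median log2 change of 0.03. Apoa1, the main protein of high-density lipoprotein, went from 4477, 5868 and 7092 CPM to 969, 2056 and 2758 CPM (log2 -1.60, adjusted p = 7.64e-04), while Apoa5, which speeds the clearance of triglyceride, rose from 200.2, 293 and 367 CPM to 361, 657 and 810.1 CPM (log2 1.09, adjusted p = 0.00213). Of complement genes 7 of 33 rose, 5 fell and 21 did not pass, with a median log2 change of 0.22, with 3 falls without control-ASO mouse 1, 2, 5 or 6 or Smyd3-ASO mouse 1 or 3. C1qa, made by macrophages, rose from 33.5, 45.0 and 66.1 CPM to 69.4, 178 and 244 CPM (log2 1.82, adjusted p = 3.96e-04), and the hepatocyte product Clu fell from 454, 801 and 1385 CPM to 228, 339 and 381 CPM (log2 -1.38, adjusted p = 0.00114), both with no overlap. Globin RNA of blood in the tissue also fell, with Hbb-bs from 638, 744 and 1790.2 CPM to 138, 222 and 331 CPM (log2 -2.18, adjusted p = 2.53e-04).

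Among genes of fatty acid oxidation and targets of the receptor PPAR alpha, rises outnumbered falls. Of these, 16 of 39 rose, 2 fell and 21 did not pass, with a median log2 change of 0.37. That is 46.2% called, against 26.1% of all genes. Acad11, a mitochondrial dehydrogenase of long chains, rose from 39.8, 42.2 and 64.6 CPM to 70.4, 121 and 162 CPM (log2 1.38, adjusted p = 2.47e-04). Pex11a, which divides peroxisomes, rose from 69.3, 104 and 128 CPM to 159, 244 and 337 CPM (log2 1.28, adjusted p = 0.00119). In neither gene did the groups overlap. The members that fell were the fasting hormone Fgf21 and the receptor gene Ppara itself. Fgf21 went from 0.378, 5.33 and 17.8 CPM to 0, 0.278 and 1.51 CPM (log2 -3.77, adjusted p = 0.0058), or log2 -4.64 without Smyd3-ASO mouse 4, and Ppara lost its call without several single mice (adjusted p up to 0.102, without control-ASO mouse 3). Phyh, which removes branched chains in peroxisomes, rose from 439, 599 and 881 CPM to 1172, 1588 and 2287 CPM (log2 1.38, adjusted p = 3.36e-04), one of the largest gains in CPM. Over the list the median member stood at 0.13 to 0.54 (log2, against the control-ASO mean) in Smyd3-ASO mice and at -0.33 to 0.37 in control-ASO mice, so whole-list levels did overlap.

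Lipid storage and synthesis did not move one way. Beside 26.1% of all genes, 34.6% of lipid droplet genes and 28.1% of fatty acid and triglyceride synthesis genes were called. Of lipid droplet genes 6 of 26 rose, 3 fell and 17 did not pass, with a median log2 change of 0.37. Plin5, a droplet coat that couples droplets to mitochondria, rose from 10.6, 14.6 and 22.5 CPM to 29.2, 34.6 and 43.5 CPM (log2 1.22, adjusted p = 2.98e-04), and Tm6sf2, which loads lipoproteins with lipid, fell from 23.3, 31.9 and 32.9 CPM to 8.28, 14.1 and 16.6 CPM (log2 -1.16, adjusted p = 2.90e-04). Lpl, the lipase that frees fatty acids from lipoproteins, fell from 233, 433 and 795 CPM to 114, 171 and 230.1 CPM (log2 -1.41, adjusted p = 0.00355). These 3 genes did not overlap between the groups. In fatty acid and triglyceride synthesis 4 of 32 rose, 5 fell and 23 did not pass, with a median log2 change of -0.20, with 2 rises without control-ASO mouse 2, 4 or 5. Dgat2, the last step of triglyceride synthesis, fell from 255, 376 and 486 CPM to 84.7, 117 and 203 CPM (log2 -1.57, adjusted p = 2.22e-04), and Srebf1, its transcriptional driver, from 71.1, 114 and 171 CPM to 19.3, 36.0 and 84.9 CPM (log2 -1.50, adjusted p = 0.00549). Cholesterol synthesis had 4 rises and 3 falls among 26 (26.9% called, against 26.1% of all genes). Its enzyme gene Idi1 rose from 25.5, 55.3 and 83.1 CPM to 116, 192 and 333 CPM (log2 1.81, adjusted p = 0.00107), with no overlap.

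Genes of glucose and one-carbon pathways changed in both directions. In glycolysis, gluconeogenesis and glycogen metabolism 3 of 44 rose, 10 fell and 31 did not pass, with a median log2 change of -0.13. The share called was 29.5%, against 26.1% of all genes. Without control-ASO mouse 1 the median was 0.17. The summed level of the list was 3790, 4434 and 6080 CPM under control ASO, against 4616, 6369 and 9060 CPM under Smyd3-ASO. Pygb, the brain form of glycogen phosphorylase, fell from 15.3, 25.9 and 43.8 CPM to 2.81, 5.89 and 6.92 CPM (log2 -2.37, adjusted p = 8.35e-05). Pfkm, the muscle form of phosphofructokinase, fell from 1.91, 3.55 and 4.77 CPM to 0.602, 1.01 and 1.51 CPM (log2 -1.68, adjusted p = 0.00151). Gckr, the liver regulator of glucokinase, fell from 72.1, 101 and 109 CPM to 34.3, 53.9 and 63.2 CPM (log2 -0.92, adjusted p = 9.85e-04). The 3 that rose were Eno1, Pgk1 and Pgam1, neighbouring steps of lower glycolysis (log2 0.85, 0.94 and 0.40). In one-carbon and nucleotide synthesis 6 of 29 genes rose and 2 fell (27.6% called), with a median log2 change of 0.01. Phgdh, which starts serine synthesis, fell from 1.38, 2.99 and 9.13 CPM to 0.0541, 0.138 and 0.389 CPM (log2 -4.31, SE 0.58, adjusted p = 2.09e-04), and Psat1, the next step, from 0.629, 3.14 and 10.4 CPM to 0.133, 0.243 and 1.06 CPM (log2 -3.44, adjusted p = 0.00315). Phgdh did not overlap between the groups, and Psat1 did. Both were low in untreated livers, at 0.128 ± 0.0957 CPM and 0.601 ± 0.270 CPM (SD, n = 5).

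Of 52 genes of the urea cycle and amino acid breakdown 10 rose and 5 fell (28.8% called, against 26.1% of all genes). Slc25a15, the ornithine carrier of the urea cycle, rose from 86.2, 142 and 197 CPM to 259, 332 and 380.3 CPM (log2 1.20, adjusted p = 6.75e-04), and Oat, which turns ornithine toward glutamate, from 36.4, 60.7 and 172 CPM to 127, 243 and 332 CPM (log2 1.62, adjusted p = 0.00951). Bckdhb, of the branched-chain dehydrogenase, fell from 52.7, 66.8 and 77.4 CPM to 28.9, 34.8 and 41.0 CPM (log2 -0.92, adjusted p = 2.98e-04). Slc25a15 and Bckdhb did not overlap between the groups. By position in the lobule, of pericentral hepatocyte genes 8 of 26 rose, 3 fell and 15 did not pass, with a median log2 change of 0.92, and of periportal genes 0 of 25 rose, 7 fell and 18 did not pass, with a median log2 change of -0.07. Hsd17b6, a periportal steroid enzyme, fell from 67.6, 94.4 and 122 CPM to 37.6, 42.8 and 62.5 CPM (log2 -1.02, adjusted p = 7.46e-04), and the junction gene Cdh1 from 195, 393 and 411 CPM to 74.2, 166 and 217 CPM (log2 -1.11, adjusted p = 0.00636). Ctnnb1, which encodes the Wnt effector beta-catenin, fell from 249.7, 272 and 304 CPM to 136, 180.5 and 211 CPM (log2 -0.64, adjusted p = 0.00317), with no overlap. The median of all genes was 0.01, against 0.92 for pericentral and -0.07 for periportal genes. The shares called were 42.3% of pericentral and 28.0% of periportal genes, against 26.1% of all genes. The periportal median changed sign without control-ASO mouse 2 or Smyd3-ASO mouse 2 or 6.

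**Figure D4:**
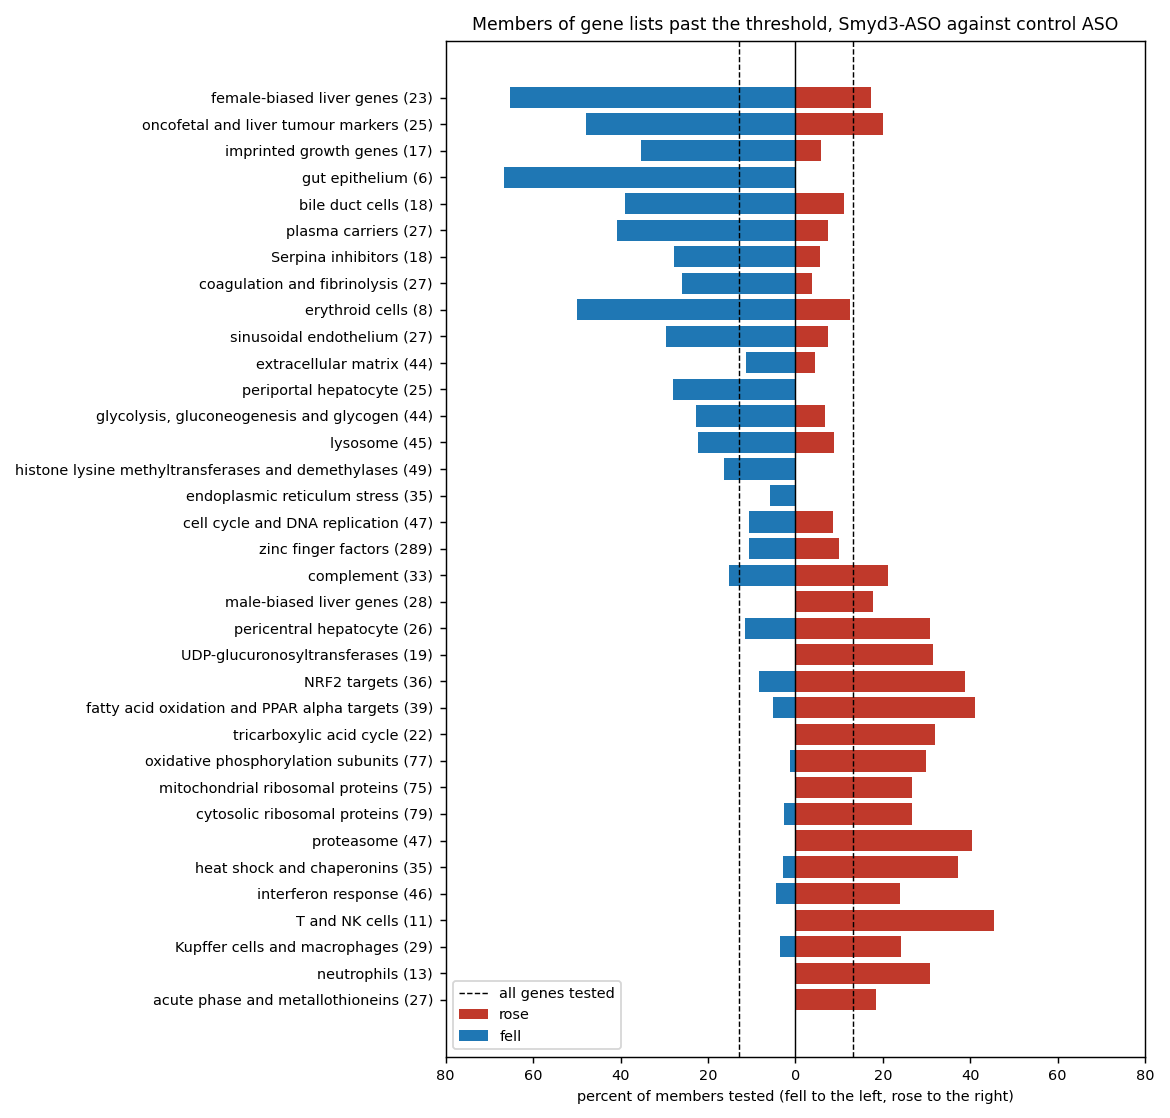
For each gene list the bar to the right is the percent of tested members that rose and the bar to the left the percent that fell, with the number tested in brackets. The dashed lines mark all genes tested, 13.3% risen and 12.9% fallen; female-biased genes (15 of 23 fell) reach farthest among the larger lists on the left, and fatty acid oxidation (16 of 39) and the proteasome (19 of 47) rose in about 40% of members.

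Nuclear genes for mitochondrial proteins mostly rose where they changed. Of the subunits of oxidative phosphorylation, which carry electrons to oxygen and make ATP, 23 of 77 rose, 1 fell and 53 did not pass, with a median log2 change of 0.29. Ndufb3, a complex I subunit (ENSMUSG00000026032; mm10 chromosome 1, plus strand, 58586384 to 58595964), rose from 120.5, 148 and 205 CPM to 339, 620.0 and 782 CPM (log2 1.95, SE 0.21, adjusted p = 3.41e-05). Ndufa5 rose from 55.7, 63.0 and 88.5 CPM to 139, 151 and 190.0 CPM (log2 1.19, adjusted p = 1.54e-04) and Ndufs5 from 27.9, 37.1 and 48.8 CPM to 63.0, 75.6 and 91.5 CPM (log2 1.00, adjusted p = 3.76e-04), both also of complex I. These 3 genes did not overlap between the groups. The count of 23 was 15 without control-ASO mouse 6, and Cyc1, which fell, lost its call without 1 of several mice (adjusted p = 0.0783 without control-ASO mouse 1). Chchd2, a small intermembrane protein, had the largest gain in CPM among risen genes with a full gene symbol, from 922, 1203 and 1597 CPM to 2719, 3037 and 4000.0 CPM (log2 1.36, adjusted p = 1.58e-04). In the tricarboxylic acid cycle 7 of 22 rose, 0 fell and 15 did not pass, with a median log2 change of 0.32. The shares called were 31.2% of oxidative phosphorylation subunits and 31.8% of tricarboxylic acid cycle genes. Cs, citrate synthase, rose from 18.5, 21.7 and 31.1 CPM to 32.1, 45.0 and 81.2 CPM (log2 1.06, adjusted p = 0.00382), with no overlap. Of mitochondrial ribosomal proteins 20 of 75 rose, 0 fell and 55 did not pass, with a median log2 change of 0.17, led by Mrpl23 (log2 1.17). That is 26.7% called, against 26.1% of all genes, of which 13.3% rose and 12.9% fell.

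Rises outnumbered falls among proteasome, chaperone and ribosomal protein genes, while of endoplasmic reticulum stress genes 0 of 35 rose and 2 fell (5.7% called, median log2 -0.12). Of proteasome genes 19 of 47 rose, 0 fell and 28 did not pass, with a median log2 change of 0.34. Psme2, a subunit of the interferon-induced activator, rose from 61.2, 63.8 and 83.5 CPM to 114, 139 and 169 CPM (log2 1.04, adjusted p = 1.21e-04). Of heat shock and chaperonin genes 13 of 35 rose, 1 fell and 21 did not pass, with a median log2 change of 0.35. Hspe1, the lid of the mitochondrial chaperonin, rose from 126, 154 and 192 CPM to 236, 515 and 613 CPM (log2 1.60, adjusted p = 1.66e-04), its partner Hspd1 from 101, 115 and 185 CPM to 191, 227 and 263 CPM (log2 0.86, adjusted p = 0.00145), and Cct8 of the cytosolic chaperonin from 91.7, 103 and 107 CPM to 163, 231 and 314 CPM (log2 1.20, adjusted p = 1.04e-04). No mouse of one group reached the other in Psme2, Hspe1, Hspd1 or Cct8. The 1 that fell, the inducible Hspa1b, went from 4.29, 14.6 and 213 CPM to 2.21, 6.13 and 8.85 CPM (adjusted p = 0.0339). Without control-ASO mouse 1 its log2 change was -1.10 (adjusted p = 0.061), and the call also ended without any 1 of the Smyd3-ASO mice. Cytosolic ribosomal proteins had 21 rises and 2 falls among 79, and 12 rises without Smyd3-ASO mouse 4 or 13 without control-ASO mouse 1, 3 or 6. Rps3 rose from 251, 306 and 473 CPM to 490.0, 591 and 723 CPM (log2 0.83, adjusted p = 0.0036). Rps27 and Rpl15 were the falls (log2 -0.39 and -0.36), and both calls ended without control-ASO mouse 2 (adjusted p = 0.086 and 0.103) and without several other mice. Rpl21, picked out after its values were seen and which shares reads with pseudogenes, stood at 2.39 to 3.41 CPM in control-ASO mice 1, 3 and 6, at 80.8 to 123 CPM in mice 2, 4 and 5, and at 299, 439.6 and 496 CPM under Smyd3-ASO; its call (adjusted p = 0.0368) ended without any 1 of several mice (adjusted p = 0.0621 without Smyd3-ASO mouse 3).

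Short genes as a class were higher, which lies beside these lists. Protein-coding genes were split into 4 equal parts by their longest annotated transcript. In the shortest part (90 to 2152 bases) 16.7% rose and 11.8% fell, with a median log2 change of 0.083. In the longest part (4761 to 123179 bases) 8.3% rose and 15.0% fell, with a median of -0.079. The median length was 3338 bases over all these genes, 1094 for cytosolic ribosomal proteins, 1129 for oxidative phosphorylation and 1884 for mitochondrial ribosomal proteins, against 6363 for the histone methylases and demethylases and 5270 for extracellular matrix genes. The part of length in the list counts was not tested.

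Detoxifying enzymes changed in both directions. Of NRF2 targets, the antioxidant genes under the factor that Keap1 holds back, 14 of 36 rose, 3 fell and 19 did not pass, with a median log2 change of 0.72. Txn1, thioredoxin, rose from 137, 155 and 172 CPM to 298, 359 and 537 CPM (log2 1.36, SE 0.17, adjusted p = 1.17e-04), with no overlap. Gsta1, a glutathione transferase, rose from 2.90, 4.09 and 9.06 CPM to 10.1, 92.0 and 226 CPM (log2 4.37, adjusted p = 0.00331), also with no overlap but over a wide range of Smyd3-ASO mice. Keap1, Abcc2 and G6pdx were the falls (log2 -0.55, -0.62 and -0.94), with G6pdx lost without control-ASO mouse 4 (adjusted p = 0.0795) and several others. The 14 rises were 9 without control-ASO mouse 2 or 6 or Smyd3-ASO mouse 2. Among glutathione transferases 6 of 22 rose and 3 fell, with 11 rises without control-ASO mouse 3. Gstm5 fell from 11.9, 16.03 and 16.7 CPM to 5.67, 6.73 and 7.34 CPM (log2 -1.21, adjusted p = 5.35e-05) and Gstp3 from 113, 126 and 169 CPM to 39.7, 54.2 and 72.2 CPM (log2 -1.30, adjusted p = 1.14e-04). Both lay wholly below the control-ASO mice. Of UDP-glucuronosyltransferases, which make drugs and steroids soluble, 6 of 19 rose and 0 fell, but 15 rose without control-ASO mouse 3 and 16 without Smyd3-ASO mouse 4. The shares called were 47.2% of NRF2 targets, 40.9% of glutathione transferases and 31.6% of UDP-glucuronosyltransferases, against 26.1% of all genes.

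Cytochrome P450 genes moved apart within families. In family 2 there were 6 rises and 6 falls among 36, in family 3 there were 2 and 4 among 8, and in family 4 there were 4 and 1 among 13. The shares called were 33.3%, 75.0% and 38.5%, against 26.1% of all genes. Family 2 had 3 rises without control-ASO mouse 2, 5 or 6 or Smyd3-ASO mouse 2, and 10 falls without Smyd3-ASO mouse 5. Cyp2b10, which the drug receptor CAR switches on, rose from 0, 0.338 and 1.76 CPM to 2.02, 5.13 and 9.15 CPM (log2 3.60, adjusted p = 0.00125), or by 4.46 without control-ASO mouse 3. Its neighbour Cyp2b13 fell from 1.38, 7.98 and 11.4 CPM to 0, 0.0583 and 0.375 CPM (log2 -5.73, adjusted p = 2.50e-04), or log2 -6.36 without Smyd3-ASO mouse 5. Cyp2e1, which oxidises ethanol and activates DEN, rose from 481, 1026 and 2017 CPM to 1397, 2667 and 3722 CPM (log2 1.22, adjusted p = 0.0154). Cyp2b10 did not overlap between the groups. Cyp3a11, the main drug-metabolising member in liver, rose from 354, 488 and 984 CPM to 558, 1102 and 1505 CPM (log2 0.93, adjusted p = 0.0179), with overlap.

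Conjugating enzymes and transporters also split. Of sulfotransferases 3 of 11 rose and 4 fell (63.6% called, against 26.1% of all genes). Sult1c2 went from 1.79, 2.65 and 3.53 CPM to 0.487, 0.748 and 1.44 CPM (log2 -1.70, adjusted p = 9.21e-04), and Sult1b1 from 3.65, 5.43 and 10.6 CPM to 11.3, 17.7 and 22.4 CPM (log2 1.43, adjusted p = 0.00105), in opposite directions and each with no overlap. Of carboxylesterases, which cleave drugs and lipids, 4 of 14 rose and 2 fell (42.9% called). Ces2b rose from 0, 0.0747 and 0.252 CPM to 0.506, 0.771 and 1.69 CPM (log2 3.23, adjusted p = 0.00147), or by 3.88 without control-ASO mouse 4, and Ces1b fell from 80.1, 159.6 and 197 CPM to 27.7, 40.2 and 63.6 CPM (log2 -1.85, adjusted p = 2.36e-04). The 4 rises were 2 without control-ASO mouse 2, 4, 5 or 6. Of aldehyde dehydrogenases 6 of 16 rose and 2 fell (50.0% called). Aldh1a7 rose from 37.1, 67.3 and 119.7 CPM to 125, 168 and 310.2 CPM (log2 1.27, adjusted p = 0.00684). Of ABC transporters 7 of 40 rose and 8 fell (37.5% called). In bile acid synthesis and transport 3 of 32 rose and 4 fell, and the 21.9% called lay below the 26.1% of all genes. The members of the fibroblast growth factor feedback, the co-receptor Klb and the receptor Fgfr4, fell (log2 -1.49 and -0.92).

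Beside 26.1% of all genes, 19.1% of cell cycle genes, 17.4% of p53 targets, 18.2% of Ras-MAPK feedback genes and 33.3% of core histones were called. In cell cycle and DNA replication 4 of 47 rose, 5 fell and 38 did not pass, with a median log2 change of -0.34. Pcna, the clamp of the replication fork, rose from 11.7, 15.6 and 21.7 CPM to 27.6, 28.9 and 36.4 CPM (log2 0.91, adjusted p = 5.71e-04), and Mcm4, of the replicative helicase, from 2.45, 3.26 and 4.21 CPM to 4.75, 7.31 and 10.1 CPM (log2 1.15, adjusted p = 0.00129). Tk1, a thymidine kinase of dividing cells, fell from 10.5, 15.4 and 20.2 CPM to 3.42, 5.44 and 8.99 CPM (log2 -1.43, adjusted p = 0.00103). None of the 3 overlapped between the groups. The 5 falls were 3 without control-ASO mouse 2 or 5 or Smyd3-ASO mouse 3, and 8 without control-ASO mouse 4 or Smyd3-ASO mouse 2. Of p53 targets 4 of 23 rose, 0 fell and 19 did not pass, with a median log2 change of 0.33, and 7 rose without Smyd3-ASO mouse 6. Aen, a nuclease induced by p53, rose from 3.76, 4.74 and 6.14 CPM to 9.99, 12.2 and 23.004 CPM (log2 1.52, adjusted p = 3.51e-04), with no overlap. Of feedback genes of Ras-MAPK signalling 2 of 11 fell. Dusp5, a phosphatase of ERK, fell from 3.02, 7.02 and 15.9 CPM to 0.576, 1.24 and 2.37 CPM (log2 -2.75, adjusted p = 5.27e-04), with no overlap, and Spry2, a brake on receptor signalling, from 1.26, 3.52 and 6.14 CPM to 0.301, 1.07 and 1.55 CPM (log2 -1.83, adjusted p = 0.0101). Histone Hist1h1c fell from 79.4, 91.4 and 114 CPM to 34.9, 45.0 and 53.6 CPM (log2 -1.10, adjusted p = 1.47e-04).

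Signalling families lay on both sides of the 26.1% called over all genes, at 30.8% of Wnt pathway genes, 33.3% of epithelial-mesenchymal transition genes, 4 of 25 Jak-Stat genes, 11.8% of Hippo and YAP targets and 9.5% of immediate early genes. In the Wnt pathway 3 of 26 genes rose and 5 fell. Fzd8, a Wnt receptor, fell from 4.53, 9.37 and 12.2 CPM to 1.19, 2.45 and 4.45 CPM (log2 -1.59, adjusted p = 0.00319), and Fzd5, another, from 6.54, 8.31 and 10.4 CPM to 2.60, 5.04 and 5.56 CPM (log2 -0.87, adjusted p = 0.00672). Wnt2, a ligand of the sinusoid, rose from 0.637, 2.13 and 3.16 CPM to 3.19, 5.54 and 8.47 CPM (log2 1.43, adjusted p = 0.00849). These 3 genes did not overlap between the groups. In Jak-Stat signalling 2 of 25 rose and 2 fell, with the cytokine kinase Jak1 from 90.1, 99.3 and 123 CPM to 39.8, 53.6 and 89.1 CPM (log2 -0.86, adjusted p = 0.00575). Socs1, a brake on cytokine receptors, rose by log2 3.68 but by 0.96 without Smyd3-ASO mouse 3 (adjusted p = 0.221). Of Hippo and YAP targets 2 of 17 rose, led by Birc2, an inhibitor of apoptosis (log2 1.35). Of epithelial-mesenchymal transition genes 3 of 21 rose and 4 fell, and of immediate early genes 2 of 21 fell.

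Among 37 transcription factors and other regulators of hepatocytes 5 rose and 5 fell (10 of 37 called, against 26.1% of all genes). Cebpb, induced in regeneration and inflammation, rose from 22.7, 31.9 and 81.3 CPM to 89.2, 177 and 305 CPM (log2 2.13, adjusted p = 0.00123), and Onecut2, a liver developmental factor, from 48.4, 70.9 and 121 CPM to 151, 220.0 and 316 CPM (log2 1.54, adjusted p = 6.83e-04). Ahr, the dioxin receptor, rose from 7.62, 11.4 and 15.99 CPM to 16.05, 26.2 and 42.2 CPM (log2 1.21, adjusted p = 0.00227). The glucocorticoid receptor gene Nr3c1 fell from 46.2, 56.0 and 59.7 CPM to 23.2, 30.5 and 37.2 CPM (log2 -0.89, adjusted p = 2.89e-04). None of these 4 overlapped between the groups. The 5 rises were 3 without control-ASO mouse 2, 4 or 5 or Smyd3-ASO mouse 4. Clock genes had 1 rise and 4 falls among 22, with the clock repressor Per2 from 13.5, 20.7 and 28.5 CPM to 5.28, 9.24 and 16.1 CPM (log2 -1.04, adjusted p = 0.0095). Per3 varied from 5.25 to 92.1 CPM among control-ASO mice, and the labels give no time of harvest.

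Immune genes rose in part, beside 13.3% risen and 12.9% fallen over all genes. Of interferon response genes 11 of 46 rose, 2 fell and 33 did not pass, with a median log2 change of 0.43, with 18 rises without Smyd3-ASO mouse 4. Ifi47, an interferon-induced GTPase, rose from 8.41, 11.8 and 14.8 CPM to 17.6, 27.9 and 54.9 CPM (log2 1.38, adjusted p = 0.00114), and Gbp2, another, from 0.589, 1.37 and 1.83 CPM to 2.498, 4.21 and 6.22 CPM (log2 1.65, adjusted p = 0.00146). Bst2, an interferon-induced tether of virions that was picked out after its values were seen, rose from 4.87, 6.54 and 82.4 CPM to 36.4, 345 and 491 CPM (log2 4.07, adjusted p = 0.00743), or by 5.66 without control-ASO mouse 4. Ifi47 and Gbp2 did not overlap between the groups. Iigp1 fell (log2 -0.69), as did Ifih1, whose call ended without single mice (adjusted p = 0.096 without control-ASO mouse 6). Markers of T and NK cells had 5 rises and 0 falls among 11, and 3 rises without control-ASO mouse 4 or 5 or Smyd3-ASO mouse 1. Trbc2, a T cell receptor chain, rose from 0.215, 0.535 and 1.38 CPM to 0.874, 1.95 and 3.41 CPM (log2 1.59, adjusted p = 0.0104). Of macrophage markers 7 of 29 rose, 1 fell and 21 did not pass, with a median log2 change of 0.33. Lyz2, lysozyme, rose from 21.8, 40.4 and 59.2 CPM to 63.0, 84.4 and 111 CPM (log2 1.07, adjusted p = 0.00387), with no overlap.

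Antigen presentation of class I had 5 rises and 0 falls among 21 (23.8% called, against 26.1% of all genes). Erap1, which trims peptides for class I, rose from 16.4, 18.7 and 20.2 CPM to 25.0, 29.8 and 35.7 CPM (log2 0.69, adjusted p = 0.00104), with no overlap, and the class I heavy chain H2-K1 rose from 1283, 1725 and 2442 CPM to 2040.3, 3184 and 4696 CPM (log2 0.83, adjusted p = 0.0152), with overlap. Class II genes had 1 rise among 11. Of neutrophil markers 4 of 13 rose and 0 fell, with 7 rises without Smyd3-ASO mouse 6, and their summed level overlapped, at 97.07 to 402.1 CPM under control ASO, against 99.11 to 2437 CPM under Smyd3-ASO. Csf3r, the receptor of the neutrophil growth factor, rose from 0.537, 0.924 and 1.87 CPM to 1.39, 2.80 and 3.30 CPM (log2 1.29, adjusted p = 0.0116). Of chemokines and their receptors 4 of 33 rose and 5 fell, and both counts were 3 or lower without any 1 of several mice. Ccl9, a macrophage chemokine, fell from 45.1, 47.2 and 62.9 CPM to 22.8, 31.8 and 37.6 CPM (log2 -0.74, adjusted p = 0.00291), with no overlap.

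The acute phase genes, made by hepatocytes under inflammatory cytokines, separated single mice rather than groups. Of them 5 of 27 rose, 0 fell and 22 did not pass, with a median log2 change of 0.92, and 3 rose without control-ASO mouse 2, 4 or 5 or Smyd3-ASO mouse 3. That is 18.5% called, against 26.1% of all genes. Against the control-ASO mean of each gene the median member stood at 2.39 in Smyd3-ASO mouse 3, 1.54 in mouse 4 and 0.43 in mouse 5 (log2), but at -0.89, -1.01 and -1.06 in mice 1, 2 and 6. Control-ASO mice lay between -0.60 and 0.62, and untreated mice between -0.06 and 2.69. Saa3, an acute phase apolipoprotein, stood at 3.11, 5.41 and 25.0 CPM and 6.37, 19.0 and 1433 CPM, and its log2 change of 4.94 (adjusted p = 0.0317) was 1.58 without Smyd3-ASO mouse 3 (adjusted p = 0.156). The same 3 mice that were low in acute phase genes were high in NRF2 targets, at 0.89, 1.16 and 1.10 in mice 1, 2 and 6 against 0.30, 0.01 and 0.18 in mice 3, 4 and 5. These 3 mice were also the lowest for plasma carriers. Oncofetal markers were low in all 6, from -1.42 to -0.65. The Smyd3-ASO group thus held mice of different profiles, and no label tells these mice apart.

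**Figure D5:**
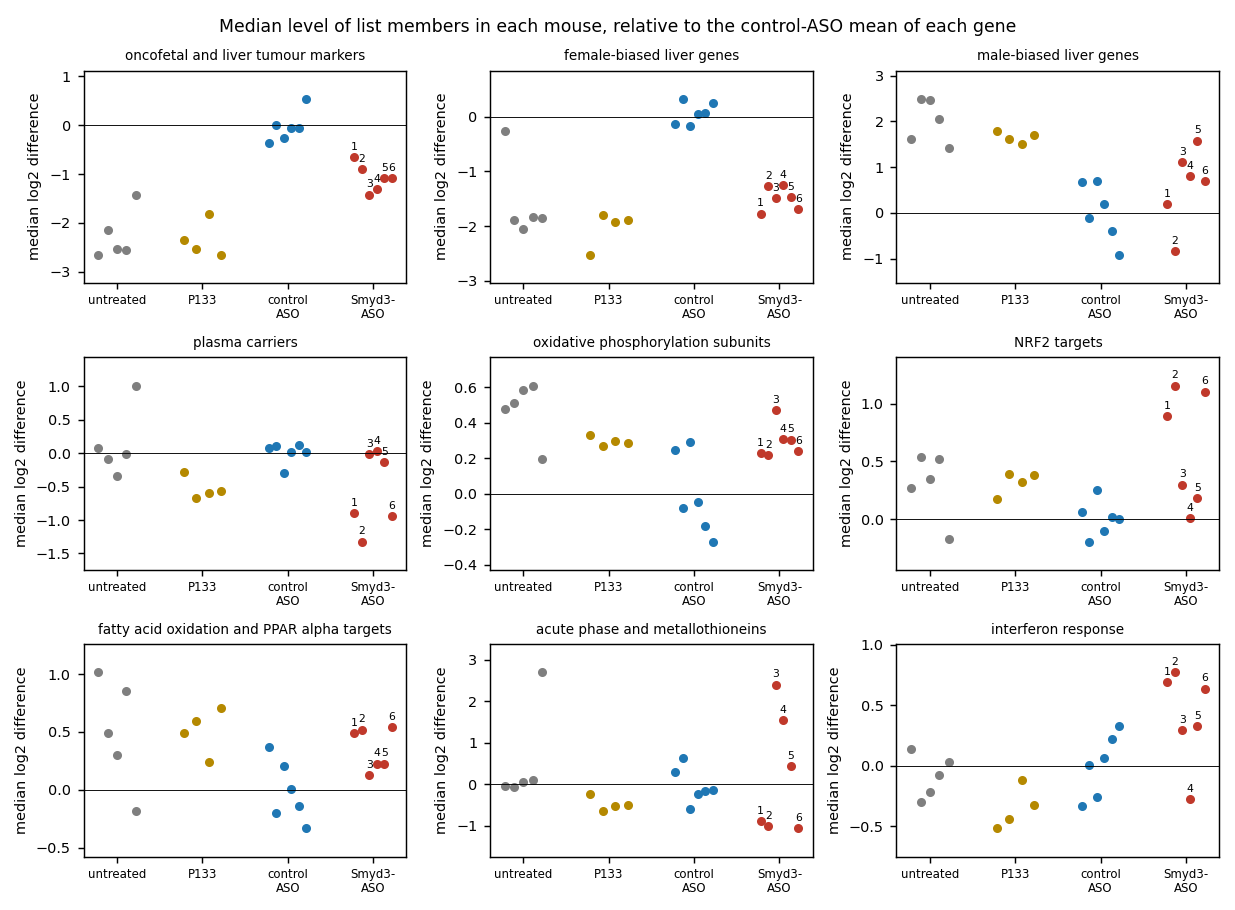
Each point is 1 mouse, at the median over list members of log2(CPM + 0.5) minus the control-ASO mean of the gene, for 9 gene lists and 4 groups; Smyd3-ASO mice carry their number. Among Smyd3-ASO mice, mice 3 and 4 are highest for acute phase genes (2.39 and 1.54), where 1 untreated mouse lies higher still (2.69), while mice 1, 2 and 6 are highest for NRF2 targets (0.89 to 1.16) and lowest for plasma carriers (-1.32 to -0.89), and all 6 lie below the control-ASO mice for oncofetal and female-biased genes.

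Markers of other cell types were read for the same tissue. Of bile duct markers 2 of 18 rose, 7 fell and 9 did not pass, with a median log2 change of -0.72, and their summed level was 762.7 to 1936 CPM under control ASO, against 423.5 to 567.7 CPM under Smyd3-ASO. Krt23, a keratin, fell from 3.48, 10.3 and 13.8 CPM to 0.487, 0.909 and 1.67 CPM (log2 -3.27, adjusted p = 6.94e-05), and Tspan8, a membrane tetraspanin, from 37.3, 54.0 and 108 CPM to 0.920, 7.87 and 10.1 CPM (log2 -3.35, adjusted p = 0.00198). Bile duct markers ran from log2 -3.35 to 1.46, and Epcam, given above with the oncofetal markers, rose (log2 1.46). Among 6 gut epithelium markers 4 fell, and their summed level was 431.8 to 1269 against 81.08 to 298.4 CPM. Vil1, the brush border protein villin, fell from 0.673, 1.33 and 4.29 CPM to 0.0777, 0.123 and 0.437 CPM (log2 -3.39, adjusted p = 0.00141). Krt23, Tspan8 and Vil1 did not overlap between the groups. Of sinusoidal endothelium markers 2 of 27 rose, 8 fell and 17 did not pass, with a median log2 change of -0.05, with 5 falls without control-ASO mouse 6 or Smyd3-ASO mouse 3. Stab2, a scavenger receptor, fell from 22.4, 29.1 and 33.8 CPM to 14.0, 17.5 and 21.3 CPM (log2 -0.70, adjusted p = 0.00377), while their summed level overlapped, at 416.5 to 572.5 and 402.4 to 468.6 CPM. Endothelial markers ran from log2 -0.98 to 1.43, and Wnt2, the sinusoid ligand given above, rose (log2 1.43). Stellate cell markers had 3 rises and 2 falls among 24 and extracellular matrix genes 2 and 5 among 44. These are 20.8% and 15.9% called, against 26.1% of all genes. Summed levels of stellate cell markers overlapped, at 319.5 to 409.9 CPM under control ASO and 308.8 to 486.2 CPM under Smyd3-ASO. Those of extracellular matrix genes did not, at 1369 to 1995 CPM under control ASO and 968.1 to 1292 CPM under Smyd3-ASO. Nid1, a basement membrane protein, fell from 19.6, 33.2 and 46.01 CPM to 4.55, 5.82 and 8.74 CPM (log2 -2.38, adjusted p = 3.24e-05). The part of cell composition in the changes of hepatocyte genes was not tested.

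Lysosomal and membrane genes held some of the largest falls. Of lysosomal genes 4 of 45 rose, 10 fell and 31 did not pass, with a median log2 change of -0.06, with 2 rises without control-ASO mouse 3 or 4 or Smyd3-ASO mouse 1. That is 31.1% called, against 26.1% of all genes. Ctse, an aspartic protease, fell from 4.74, 9.78 and 14.6 CPM to 0, 0.165 and 0.427 CPM (log2 -5.75, SE 0.53, adjusted p = 1.84e-05), or log2 -6.39 without Smyd3-ASO mouse 2. Cd63, a tetraspanin of late endosomes, fell from 189, 486 and 539.5 CPM to 44.5, 54.2 and 96.4 CPM (log2 -2.75, adjusted p = 3.79e-05). Laptm5, of blood cell lysosomes, rose from 10.4, 15.7 and 21.7 CPM to 23.8, 42.6 and 65.0 CPM (log2 1.51, adjusted p = 8.02e-04). All 3 passed with no overlap. Of 235 solute carriers 30 rose and 38 fell (28.9% called, against 26.1% of all genes). Slc6a6, the taurine transporter, fell from 47.2, 64.7 and 69.7 CPM to 17.6, 25.8 and 33.8 CPM (log2 -1.32, adjusted p = 1.55e-04), with no overlap. Of mRNA splicing factors 19 of 67 rose, 10 fell and 38 did not pass, with a median log2 change of 0.12, and the falls were 5 or 6 without control-ASO mouse 2, 4, 5 or 6 or Smyd3-ASO mouse 1 or 2.

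By gene type, small nucleolar RNAs had 56 rises and 20 falls among 191 (median log2 0.33) and small nuclear RNAs 8 rises and 18 falls among 78 (median -0.56). These RNAs guide the modification of ribosomal RNA and the removal of introns, and most are not polyadenylated and lie in introns of host genes, so reads at them can belong to the host. Long intergenic RNAs had 42 rises and 38 falls among 285, and processed pseudogenes 162 and 158 among 1178. Over all genes tested 13.3% rose and 12.9% fell.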

How the data were processed

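RNA from liver pieces was sequenced as QuantSeq 3' mRNA-Seq FWD libraries on a NextSeq 500, per the labels' protocols; HISAT2 2.1.0, mm10 and DESeq (no version) stand in the submitters' processing notes, and the counting program and strand setting are not given in the sources used here. The authors deposited raw counts per gene for 21 mice, with the technical replicates of 35 libraries already merged (2 libraries per control-ASO mouse, 1 to 3 per Smyd3-ASO mouse). Columns were assigned to groups by the labels, which number the mice as biological replicates. Gene symbols and positions came from the reference annotation of mouse. Genes were filtered with filterByExpr over the 4 groups, scaled with TMM and tested with edgeR 4.0.16 (quasi-likelihood test, two-sided, R 4.3.3) on the 12 mice alone, with no covariate and Benjamini-Hochberg adjustment over 15297 genes. The script was tested on simulated data. CPM is reported from TMM scaling over all 21 mice. Component and correlation values used log2 CPM, and medians of lists in single mice used log2(CPM + 0.5). Reads carry no molecular identifiers, so a count of 0 and the depth given by the totals cover counting error only.

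The mice were taken by their labels, while the gene lists and their members were chosen with earlier results of these data known. No list therefore has a p of its own, and lists are described by counts and medians beside those of all genes. Genes named were Smyd3, Gpc3, Afp, Mug2 and Cyp27a1; the 12 rises and 12 falls with the smallest adjusted p and a mean log2 CPM of 2 or more; those with the largest difference in CPM; the 4 members with the smallest adjusted p of each list discussed, with members that went against the rest; and genes at 0 in a whole group. Predicted or unnamed genes were left out, and a few genes that the rule names are not reported here. Alternatives were library totals, RLE size factors, no filter, DESeq2 1.42.0, limma 3.58.1 with voom, a fit of all 21 mice, a replicate block, thinning to the smallest total, and leaving out each mouse.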

Additional observations from a re-analysis of the deposited data

Results flagged for a closer look

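Over the genes named and the library measures, 1 mouse stood far from the other 5 of its group in 18 cases, or 4.69% of the groups tested, where chance flags about 1 in 20 groups. Among control-ASO mice the lowest lay apart in Abcc2 (mouse 2, 91.8 CPM, median of the others 133 CPM), Cyp3a41a (mouse 3, 10.9 CPM, median of the others 50.05 CPM), Mrpl23 (mouse 6, 16.5 CPM, median of the others 23.2 CPM), Slc6a6 (mouse 1, 47.2 CPM, median of the others 65.2 CPM). Among control-ASO mice the highest lay apart in Bst2 (mouse 4, 82.4 CPM, median of the others 6.01 CPM), Cdkn1c (mouse 6, 3.65 CPM, median of the others 1.85 CPM), Paox (mouse 3, 5.29 CPM, median of the others 2.18 CPM), Psme2 (mouse 1, 83.5 CPM, median of the others 63.5 CPM), Saa3 (mouse 1, 25.02 CPM, median of the others 5.38 CPM). Among Smyd3-ASO mice the lowest lay apart in Bst2 (mouse 6, 36.4 CPM, median of the others 355 CPM), Pygb (mouse 3, 2.81 CPM, median of the others 6.07 CPM). Among Smyd3-ASO mice the highest lay apart in Igf2 (mouse 2, 1.55 CPM, median of the others 0.216 CPM), Klb (mouse 5, 5.18 CPM, median of the others 1.77 CPM), Mir675 (mouse 1, 0.722 CPM, median of the others 0 CPM), Mug2 (mouse 4, 262 CPM, median of the others 182 CPM), Ppara (mouse 1, 23.8 CPM, median of the others 12.1 CPM), Prom2 (mouse 5, 1.37 CPM, median of the others 0.427 CPM), Socs1 (mouse 3, 37.6 CPM, median of the others 1.36 CPM).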

How the results depend on the processing

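The count of 4000 genes was 3522 with library totals, 4016 with RLE size factors, 3528 of 30753 genes with no filter, 4733 with DESeq2, 3950 with limma and voom, 4662 with all 21 mice in the fit and 3576 with every mouse thinned to 6358080 counts. Without 1 mouse it ran from 3233 (control-ASO mouse 5) to 4446 (Smyd3-ASO mouse 6). No gene called both here and under an alternative changed sign. At least 2-fold changes numbered 1707, with 773 risen and 934 fallen. Of 180 named genes past the threshold 151 passed under every alternative that gave a value, and none reversed. The median of 64 of 83 lists kept its sign.

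With a replicate block by mouse number 3092 genes were called, 1516 risen and 1576 fallen. Mice with equal numbers did not deviate together: their correlations ran from -0.15 to 0.051, 0 of 6 pairs passed 0.1, and 0 of 6 control-ASO mice correlated best with their own number, so the numbers were not taken to pair the mice. Of the named genes 20 did not pass with the block. Some list counts were lower there than with 1 mouse left out. NRF2 targets had 7 rises, and histone lysine methyltransferases and demethylases had 3 falls, as they also had with no filter. The median of the acute phase genes changed sign with the block, to -0.056.

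The lowest total, 6358080 counts, limits genes near 1 CPM, where a mouse holds few reads and a level of 0 is not evidence of absence.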
